A study of Mus musculus with 6 samples.

Results

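The insulin-like growth factor (IGF) system was followed through 10 genes, named by symbol: the ligand genes Igf1 and Igf2, the receptor genes Igf1r and Igf2r, and the binding protein genes Igfbp2 to Igfbp7. They are 10 of the 19938 genes measured on Affymetrix Mouse Gene 1.0 arrays of whole small intestine from mouse embryos at E18.5, shortly before birth. The 3 control samples are labelled wild type. The other 3 carry a conditional knockout (cKO) of E-cadherin, the adhesion molecule of epithelial adherens junctions, encoded by Cdh1. No source used here gives the driver of the recombination, the cells it acts in or the embryos' sex. Rows of the deposited table annotated to exactly 1 of the 10 symbols were taken, and each gene had 1 such row. The genes were chosen by family, with their measured cKO minus control differences on these same arrays in view. Those differences are therefore a description here and carry no test of their own.

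IGF1 and IGF2 are secreted peptides that drive fetal growth through the IGF1 receptor, a tyrosine kinase. The IGF2 receptor, which also carries lysosomal enzymes tagged with mannose 6-phosphate, has no kinase and takes IGF2 into the cell for breakdown. The IGF binding proteins hold the ligands outside the cell, prolong their life and limit or release them, and proteases that cut the binding proteins set IGF free. In the gut wall the ligands and most binding proteins come largely from mesenchymal cells. Igf2 and Igf2r are imprinted in the mouse, the former expressed from the paternal and the latter from the maternal copy.

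Values are the authors' log2 expression values, 1 per gene and array. A gene was called changed at a Benjamini-Hochberg adjusted p under 0.05 in limma's fit over all 19938 genes. No label states that the arrays came from separate animals, so p-values cover only the spread between the samples, and part of that spread may be technical. Arrays have no read depth, and their number limits the precision. The background of an array was taken as the level under which 95% of 1233 olfactory, vomeronasal and taste receptor genes fell, 5.78 to 6.36 over the arrays. All 10 IGF genes lay above it on every array, the lowest value being 7.23.

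The 3 controls read 9.86, 9.82 and 10.15 for Cdh1 itself, against 9.70, 8.38 and 8.91 on cKO 1, 2 and 3. The groups did not overlap, but the difference of -0.95 (SE 0.31) was not called (limma adjusted p = 0.088, called without cKO 1 with a difference of -1.30 and adjusted p = 0.012). An exact two-sided permutation test over the 6 arrays gave p = 0.1, the smallest that 3 against 3 allows. Whether its probes lie outside the deletion is unknown here, so the row may check the label only in part. Epithelial markers were above background on all arrays (11 of 11). Dim genes lay lower on cKO 2, where the median of the receptor genes differed by -0.37 from the control mean. On cKO 3 the mean of 8 pancreas markers read 8.89, against 6.21 to 6.54 on the other 5 arrays (0 of 8 called between the groups), and the part of this array's pancreas signal in the values below was not tested.

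Of the 10 IGF genes, 6 rose in the cKO intestine (Igf1, Igf1r, Igfbp2, Igfbp4, Igfbp5 and Igfbp7), 2 fell (Igf2 and Igf2r) and 2 were not called (Igfbp3 and Igfbp6). Over all genes 14.2% were called, 6.81% higher and 7.36% lower. In 9 of the 10 genes the groups did not overlap, against 35.4% of all genes. The median difference was 0.69 over the 10 genes and -0.09 over all genes. Since this contrast was known when the genes were chosen, nothing further is read from those counts. Without cKO 3, 5 were called higher and 1 lower, as Igf2r and Igfbp5 were not called. Whole tissue was measured, so fewer cells of a type and less RNA per cell cannot be told apart.

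**Figure D1:**
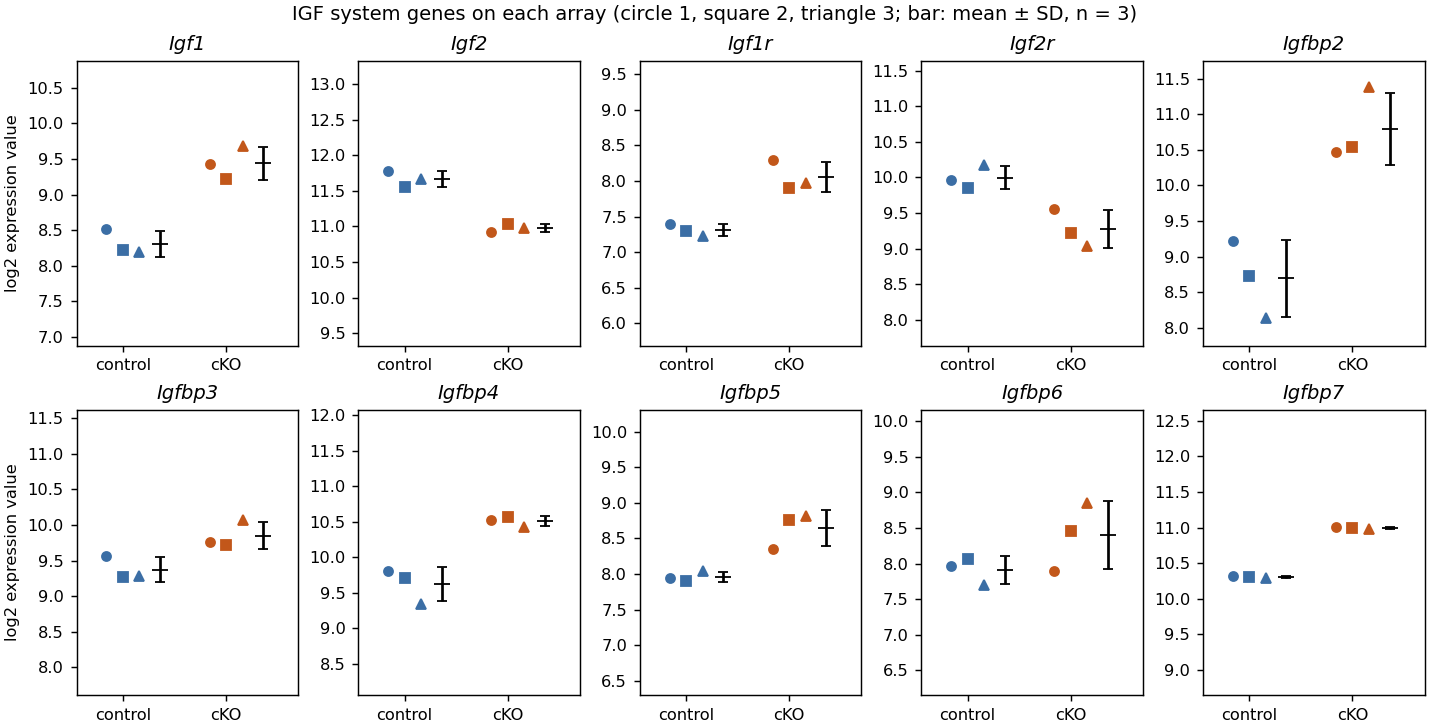
The log2 expression value of each of the 10 IGF system genes on each array, with controls in blue, cKO in orange and the mean ± SD (n = 3) beside each group; every panel spans the same range of log2 units. The groups lie apart in 9 genes and overlap in Igfbp6, where cKO 1 reads 7.89 among control values of 7.70 to 8.07.

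The ligand genes moved in opposite directions. For Igf1 the control values were 8.52, 8.22 and 8.19 and the cKO values 9.43, 9.22 and 9.68, each in the order of arrays 1, 2 and 3, as throughout. All cKO arrays were above all controls, with the highest value on cKO 3. The mean went from 8.31 ± 0.18 to 9.44 ± 0.23 (SD, n = 3 each), a rise of 1.13 (SE 0.16, 95% interval 0.76 to 1.51) or 2.19-fold. Igf2 read 11.78, 11.56 and 11.66 in the controls and 10.92, 11.03 and 10.98 in cKO 1, 2 and 3. Here every cKO array was below every control, and the cKO values were close together. The group means were 11.67 ± 0.11 and 10.98 ± 0.06 (SD, n = 3 each), which differ by -0.69 (SE 0.11, 95% interval -0.95 to -0.43), or 1.61-fold lower. Both calls held with any 1 of the 6 arrays left out, and without cKO 3, the array with the pancreas signal, the differences were 1.02 for Igf1 and -0.69 for Igf2.

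The promoters of the ligand genes are shown because the ligands moved apart. RefSeq (GRCm38.p6) gives 1 start site window for Igf1 and 4 for Igf2, and the 150 bases before the start are printed, 5′ to 3′, for Igf1 and for 1 of the 4 windows of Igf2. Capitals mark matches, on either strand, to the AP-1 motif TGANTCA and the GC box GGGCGG.
Igf1, chr10:87860961-87861110, plus strand: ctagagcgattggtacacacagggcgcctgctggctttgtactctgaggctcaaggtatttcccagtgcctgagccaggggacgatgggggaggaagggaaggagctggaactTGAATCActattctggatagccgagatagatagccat
Igf2, chr7:142657497-142657646, minus strand: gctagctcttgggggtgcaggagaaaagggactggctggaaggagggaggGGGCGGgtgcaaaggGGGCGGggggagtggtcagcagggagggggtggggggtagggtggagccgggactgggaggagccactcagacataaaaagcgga
The Igf1 window holds 1 match to the AP-1 letters, 37 to 31 bases before the start. It reads TGAATCA and was counted because N allows any central base. The other IGF window with such a match, 1 of those of Igfbp2, holds TGAGTCA 39 to 33 bases before its start. The printed Igf2 window holds 2 GC boxes, at 100 to 95 and 85 to 80 bases before the start. Of the other Igf2 windows, 1 held 1 GC box and the rest held none. In the 250 bases before the start, the AP-1 letters were found in 6.75% of 32851 windows of all genes and the GC box in 32.7%. A match describes letters and not a site of binding.

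The receptor genes also moved apart. Igf1r read 7.40, 7.30 and 7.23 in the controls and 8.30, 7.90 and 7.97 in cKO 1, 2 and 3, so that cKO 1 was highest and the groups did not overlap. Its mean rose from 7.31 ± 0.09 to 8.06 ± 0.21 (SD, n = 3 each), by 0.75 (SE 0.14, 95% interval 0.42 to 1.07) or 1.68-fold. This gene was not called without control 2 (difference 0.74) or control 3 (0.71), and the difference was 0.79 without cKO 3. Igf2r read 9.96, 9.85 and 10.17 in the controls and 9.56, 9.22 and 9.04 in cKO 1, 2 and 3. The cKO arrays were below all controls, cKO 1 least so. The group means were 9.99 ± 0.16 and 9.27 ± 0.26 (SD, n = 3 each), which differ by -0.72 (SE 0.16, 95% interval -1.11 to -0.33) or 1.65-fold lower. The call of Igf2r was lost without control 1, 2 or 3 (differences -0.74, -0.79 and -0.63) and without cKO 2 or 3 (-0.69 and -0.60).

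The promoter of Igf2r, the receptor gene that fell, is shown for its motifs. Capitals mark the GC box GGGCGG and the E-box CACGTG, the core letters bound by several basic helix-loop-helix leucine zipper factors.
Igf2r, chr17:12769707-12769856, minus strand: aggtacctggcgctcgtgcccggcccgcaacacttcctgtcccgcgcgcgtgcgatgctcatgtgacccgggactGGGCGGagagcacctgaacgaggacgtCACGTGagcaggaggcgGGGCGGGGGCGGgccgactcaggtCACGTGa
Its RefSeq (GRCm38.p6) window holds 2 E-boxes, 48 to 43 and 7 to 2 bases before the start, and 3 GC boxes. The E-box letters were found in 6.02% of all windows. Among the 14 windows of the 10 IGF genes, the E-box was found in 2, those of Igf2r and of 1 start of Igfbp2.

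Igfbp2 had the largest difference of the 10 genes. IGFBP2 is a binding protein abundant in fetal tissues and serum. Control values were 9.22, 8.73 and 8.14 and cKO values 10.47, 10.54 and 11.38. The controls spread over more than 1 log2 unit, and still the lowest cKO value was above the highest control. The mean rose from 8.70 ± 0.54 to 10.80 ± 0.51 (SD, n = 3 each), by 2.10 (SE 0.33, 95% interval 1.33 to 2.87) or 4.29-fold. It was called with any 1 array left out, and the difference was 1.81 without cKO 3.

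Igfbp4 and Igfbp7 rose with little spread among the cKO arrays. IGFBP4 mostly inhibits IGF action and is cut by the protease PAPP-A, while IGFBP7, a relative with low affinity for IGF, is found in vessels and stroma. Igfbp4 read 9.81, 9.71 and 9.35 in the controls and 10.53, 10.57 and 10.43 in cKO 1, 2 and 3. Its mean went from 9.62 ± 0.24 to 10.51 ± 0.07 (SD, n = 3 each), a rise of 0.89 (SE 0.15, 95% interval 0.54 to 1.23) or 1.85-fold. Igfbp7 read 10.32, 10.30 and 10.29 in the controls and 11.01, 10.99 and 10.98 in cKO 1, 2 and 3. Each group of Igfbp7 spans 0.03 or less, the tightest of the 10 genes, around means of 10.30 ± 0.02 and 10.99 ± 0.02 (SD, n = 3 each). The rise was 0.69 (SE 0.10, 95% interval 0.46 to 0.92) or 1.61-fold. Both genes were called with any 1 array left out, and without cKO 3 the differences were 0.93 and 0.70.

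The promoters of Igfbp2 and Igfbp4, the binding protein genes with the largest differences, are shown for comparison. Capitals mark the E-box CACGTG, the GC box GGGCGG and the TATA box TATAAA.
Igfbp2, chr1:72824330-72824479, plus strand: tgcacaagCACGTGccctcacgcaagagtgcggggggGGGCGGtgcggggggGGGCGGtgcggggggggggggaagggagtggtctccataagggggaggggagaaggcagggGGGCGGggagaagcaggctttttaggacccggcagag
Igfbp4, chr11:99041094-99041243, plus strand: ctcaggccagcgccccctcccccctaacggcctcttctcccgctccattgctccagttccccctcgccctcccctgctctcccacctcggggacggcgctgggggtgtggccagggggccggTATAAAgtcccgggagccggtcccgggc
The Igfbp4 window (RefSeq, GRCm38.p6) holds a TATA box 28 to 23 bases before the start, letters found in 12.4% of all windows. The Igfbp2 window, 1 of 2 for that gene, holds 1 E-box and 3 GC boxes. No window of the 10 genes held the STAT letters TTCNNNGAA (7.02% of all windows) or the forkhead letters GTAAACA (3.17%), which says only that these letters are not in the 250 bases searched. TEAD letters, GGAATG, were found in 3 of the 4 Igf2 windows and in that of Igfbp5 (12.6% of all windows). None of the matches in the IGF windows overlapped another.

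Igfbp5 rose, and Igfbp3 and Igfbp6 were not called. IGFBP5 binds matrix and is made by mesenchyme and muscle, IGFBP3 carries most IGF in the adult circulation, and IGFBP6 prefers IGF2. Igfbp5 read 7.94, 7.90 and 8.04 in the controls and 8.35, 8.76 and 8.82 in cKO 1, 2 and 3. The groups lay apart, with cKO 1 nearest the controls, and the mean rose from 7.96 ± 0.07 to 8.64 ± 0.26 (SD, n = 3 each). The rise of 0.68 (SE 0.15, 95% interval 0.33 to 1.04) was not called without control 1, 2 or 3 (0.67, 0.65 and 0.72) or without cKO 2 or 3 (0.63 and 0.60). Igfbp3 read 9.57, 9.27 and 9.28 in the controls and 9.76, 9.72 and 10.07 in cKO 1, 2 and 3. Its difference of 0.48 (SE 0.15, 95% interval 0.13 to 0.82) was not called as deposited, but was with quantile normalization (0.56), median centring (0.57), cyclic loess (0.52) and array weights (0.66), and without the dimmest 25% or 50% of genes. Without cKO 3 its difference was 0.37. Igfbp6 read 7.96, 8.07 and 7.70 in the controls and 7.89, 8.46 and 8.85 in cKO 1, 2 and 3. Here cKO 1 lay among the controls, and the difference was 0.49 (SE 0.24, 95% interval -0.08 to 1.06). Without cKO 1 it was 0.75 and was called, as it was with array weights (0.69), and without cKO 3 it was 0.27.

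**Figure D2:**
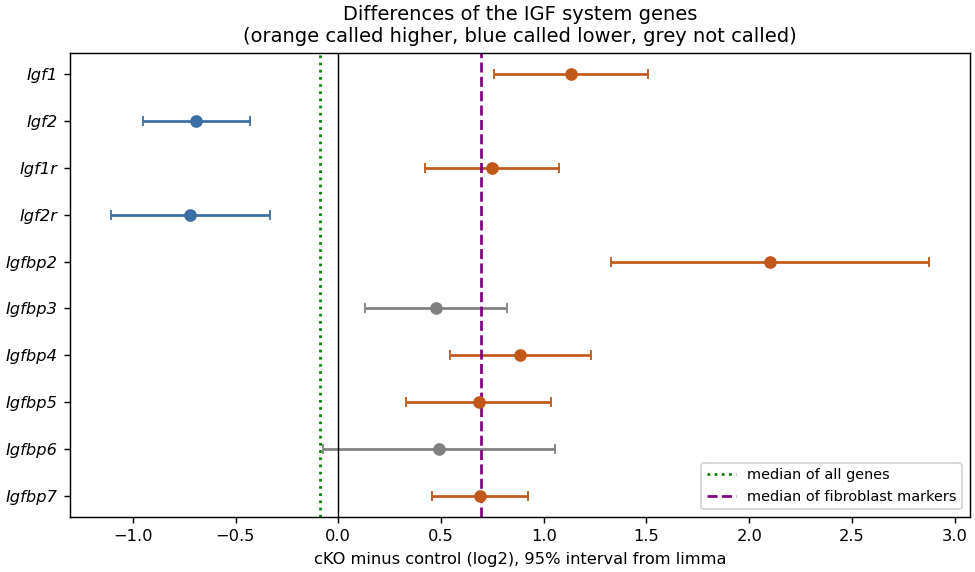
Difference of cKO minus control (log2) for the 10 IGF system genes, with limma's 95% interval, in orange where called higher, blue where called lower and grey where not called. The 2 vertical lines are the median of all genes at -0.09 and of 12 fibroblast markers at 0.69, and the intervals of Igf1r and of Igfbp3 to Igfbp7 span the latter.

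Markers of the cells that make much of the gut's IGF system also moved. Over all genes 6.81% were called higher and 7.36% lower. Of 12 fibroblast markers 10 rose (median 0.69), and their mean level ran from 9.52 to 9.76 on the controls and from 10.16 to 10.40 on the cKO arrays. Among 10 smooth muscle markers 9 rose (median 0.87), with means of 9.64 to 9.89 and 10.48 to 10.77. With each array left out in turn, 4 to 10 fibroblast and 4 to 9 smooth muscle markers were called higher. The fibroblast count was 4 without control 2 or 3, 5 without cKO 1 or 3 and 6 without control 1, and the smooth muscle count was 4 without control 2, 5 without control 3 and 6 without cKO 3. For 7 mesothelial markers, of which 4 rose (Msln, Lrrn4, Krt19 and Krt7), the means were 7.83 to 8.10 and 8.55 to 8.91. Krt19 and Krt7 are keratin genes, as are the 3 markers of the epithelial list that rose (Krt8, Krt18 and Krt20). Upk3b and Wt1 differed by -0.03 and 0.16 and were not called, and Muc16 was at background on all arrays. The 10 macrophage markers, 7 of them higher (median 1.14), had means of 7.02 to 7.15 and 7.91 to 8.33. Of 10 endothelial markers 1 rose, 0 with any 1 array left out (means 8.09 to 8.10 and 8.26 to 8.34), and of 11 epithelial markers 3 rose and 3 fell, with 2 and 1 without cKO 3 (10.43 to 10.72 and 10.61 to 10.63). Of 9 liver markers 3 fell (Afp, Fgb and Fga), with list means of 7.90 to 8.75 on the controls and 7.06 to 7.62 on the cKO arrays. The liver calls went from 3 to 0 without control 2 or without cKO 3, Alb and Ahsg were at background on all arrays, and Alb and Trf differed by 0.15 and 0.00. Of 8 markers of enteric neurons and glia 1 rose, 0 with any 1 array but control 1 left out (7.33 to 7.39 and 7.38 to 7.41). None of the markers was at 0 on any array, and the part of these shifts in the IGF values was not tested.

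**Figure D3:**
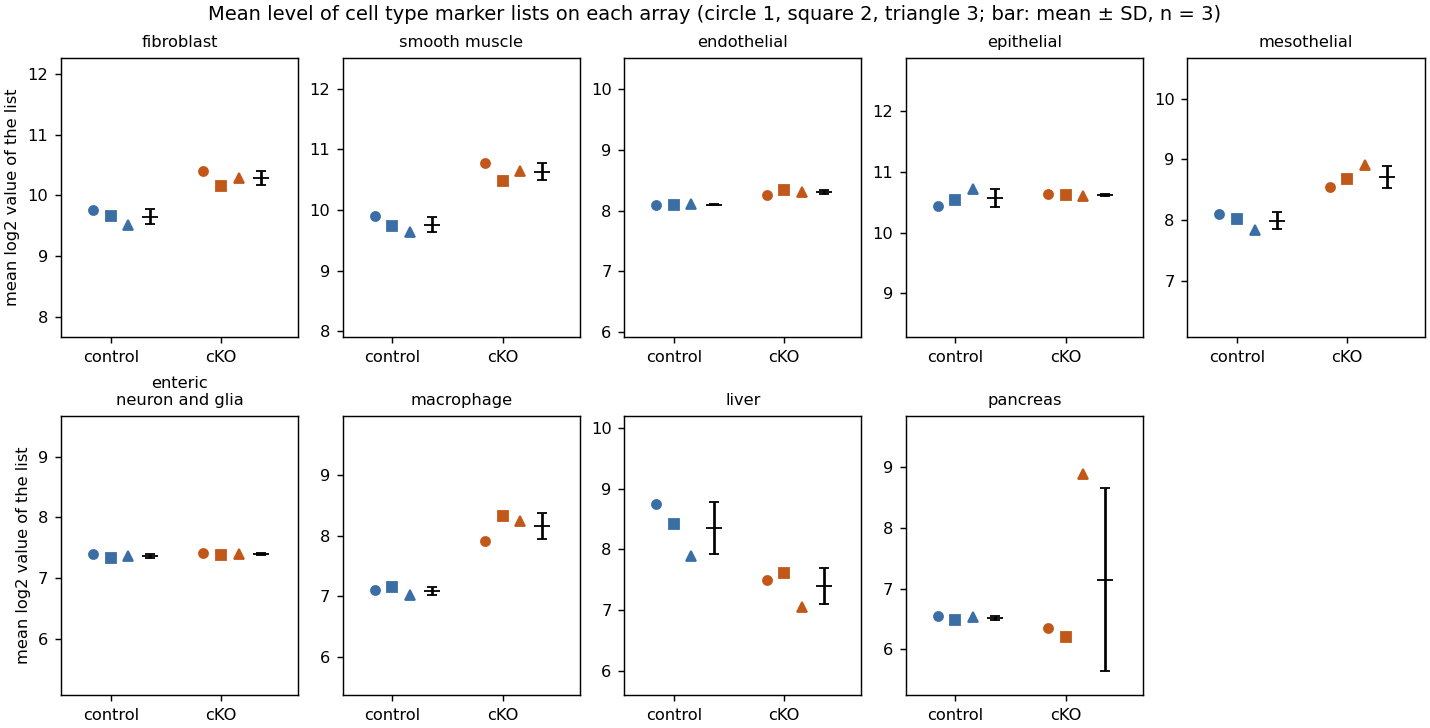
Mean log2 value of each cell type marker list on each array, controls in blue and cKO in orange, with mean ± SD (n = 3). Fibroblast, smooth muscle, mesothelial, macrophage and endothelial lists are higher on all cKO arrays, and the liver list is lower. The pancreas list is at 8.89 on cKO 3.

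The genes were also set against the mean of the 12 fibroblast markers on the same array, a scale chosen after the values had been seen. That mean is higher on the cKO arrays, so subtracting it lowers the difference of every gene by the same amount. Igf2 and Igf2r differed by -1.33 and -1.36. On this scale Igf2 went from 2.02 ± 0.12 to 0.69 ± 0.18 and Igf2r from 0.35 ± 0.26 to -1.01 ± 0.21 (SD, n = 3 each). Igfbp2 and Igf1 were still higher, by 1.46 and 0.49, as was Igfbp4 by 0.25, and in these 5 genes the groups did not overlap. On this scale the groups did not overlap in 83.1% of all genes, because the subtracted mean itself lies apart between the groups, so nothing is read from that count. For Igf1r, Igfbp3, Igfbp5, Igfbp6 and Igfbp7 the groups overlapped, with differences of 0.11, -0.16, 0.04, -0.15 and 0.05. With the 10 smooth muscle markers as the reference, Igf1 (0.26), Igf2 (-1.57), Igf2r (-1.60) and Igfbp2 (1.23) lay apart in the same directions, Igfbp3 lay apart lower (-0.40) and Igfbp4 overlapped (0.01), against 91% of all genes without overlap. The smooth muscle mean is also higher on the cKO arrays and shifts every gene alike. The macrophage markers, with a median difference of 1.14 against 1.13 for Igf1, were not used as a reference. Their part in the Igf1 values was not tested. The values on both scales rest on the same arrays that were in view when the genes were chosen, and are given as a description only.

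**Figure D4:**
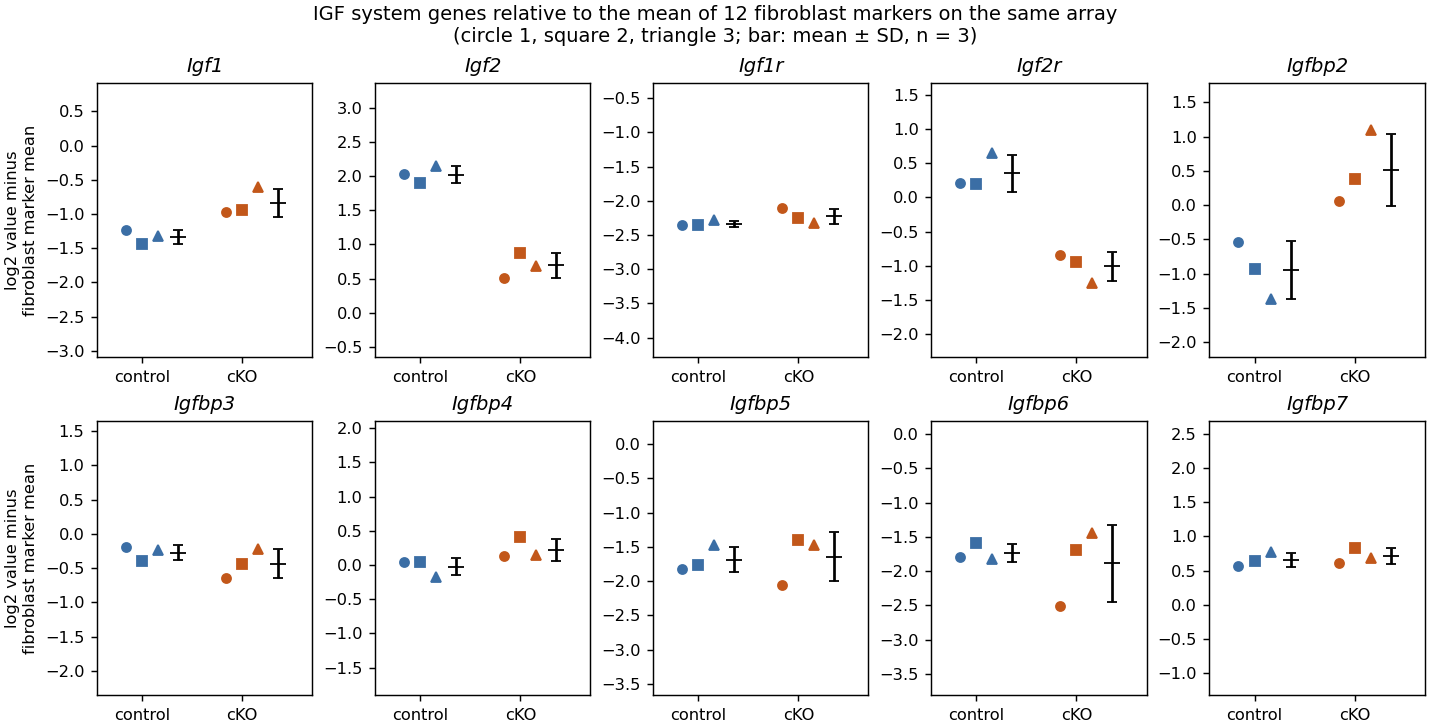
Each IGF system gene minus the mean of 12 fibroblast markers on the same array (log2), controls in blue and cKO in orange, with mean ± SD (n = 3). Igf1, Igfbp2 and Igfbp4 stay higher and Igf2 and Igf2r lower on the cKO arrays, and the other 5 genes overlap.

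The genes around the IGF system were taken from 8 lists of ligand and receptor relatives, proteases, regulators, signalling proteins and targets. Together they hold 94 measured genes, of which 16 rose and 8 fell, with a median difference of 0.00 against -0.09 for all genes. Over all 19938 genes 6.81% were called higher and 7.36% lower, and each list count below stands beside these shares. Without cKO 3, 10 of the 94 rose and 5 fell, against 658 and 859 of all genes. The lists were chosen with earlier results of these data known, so their counts are a description. Their adjusted p-values come from limma's fit over all genes.

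Genes for the proteases that cut IGF binding proteins, and for inhibitors of these proteases, were higher in 6 of 11 (0 fell, median 0.71). Control values were 6.16, 6.54 and 6.31 for Htra1, a secreted serine protease that cuts IGFBPs, and cKO values 8.15, 8.46 and 8.59. The groups did not overlap, and Htra1 rose by 2.06 (SE 0.16, adjusted p = 0.00076), with 2 of its 3 control values at background. Its relative Htra3 rose by 0.82 (SE 0.12, adjusted p = 0.0054). The metalloprotease gene Adamts1 rose by 1.17 (SE 0.17, adjusted p = 0.0057). Stc1, for a stanniocalcin that inhibits PAPP-A, read 6.14, 6.08 and 6.03 in the controls, all at background, and 6.80, 6.87 and 6.99 in cKO 1, 2 and 3 (at least 1.53-fold higher, adjusted p = 0.0041). Stc2, the other stanniocalcin gene, named after its values were seen, rose by 0.99 (SE 0.17, adjusted p = 0.0090). Pappa itself differed by 0.23 (SE 0.13, adjusted p = 0.29). Adam12, for a metalloprotease that cuts IGFBP3 and IGFBP5, also named after its values were seen, rose by 0.71 (SE 0.13, adjusted p = 0.014), which no longer passed when control 2, control 3 or cKO 3 was left out (adjusted p = 0.069, 0.0504 and 0.056). The other genes named in this paragraph kept their side of the threshold with any 1 array left out. The fibroblast and smooth muscle markers differed on the same arrays by 0.69 and 0.87 at the median, and their part in these values was not tested.

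In the growth hormone axis, which drives IGF1 production after birth, 2 genes fell. Ghr, the growth hormone receptor gene, read 10.06, 9.86 and 9.97 in the controls and 9.37, 9.14 and 8.99 in cKO 1, 2 and 3. It fell by 0.80 on the log2 scale (SE 0.14, adjusted p = 0.0090). Socs2, a target and brake of growth hormone signalling, read 9.57, 9.54 and 9.68 in the controls and 8.73, 9.0 and 8.89 in cKO 1, 2 and 3, and fell by 0.72 (SE 0.12, adjusted p = 0.0080). The groups lay apart in both genes, and both were called with any 1 array left out. Of the 8 genes of this list these 2 fell and 0 rose (median -0.08). Jak2 differed by 0.15 (adjusted p = 0.55) and Cish by 0.25 (adjusted p = 0.24).

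Downstream of the IGF1 receptor, 25 genes of the signalling chain from receptor substrates to mTOR and FOXO were measured. Against 14.2% called over all genes, 1 of these 25 rose and 0 fell (median 0.06). It was Ptpn1, a phosphatase that dampens insulin and IGF receptors, at 0.70 (SE 0.13, adjusted p = 0.013), not called without control 2 (0.67, adjusted p = 0.068), control 3 (0.65, adjusted p = 0.055) or cKO 3 (0.68, adjusted p = 0.052). The receptor substrate genes Irs1 and Irs2 differed by 0.34 (SE 0.13, adjusted p = 0.13) and -0.25 (SE 0.16, adjusted p = 0.34). Irs1 was called with quantile normalization, median centring, cyclic loess and array weights (adjusted p = 0.019 to 0.049). Pik3ca, the catalytic subunit gene of PI3-kinase, differed by 0.40 (adjusted p = 0.0505), Grb10, an adaptor that restrains the receptor, by 0.50 (adjusted p = 0.054) and Tsc1, an inhibitor of mTOR, by -0.88 (adjusted p = 0.056). Tsc1 was called without cKO 1 (-1.13, adjusted p = 0.018) and Grb10 without control 1 (0.61, adjusted p = 0.047). Quantile normalization, cyclic loess, array weights and both filters on dim genes also brought Pik3ca, Grb10 and Tsc1 past the threshold (adjusted p = 0.0066 to 0.036).

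Insr, the insulin receptor gene, read 8.49, 8.50 and 8.60 in the controls and 8.23, 7.81 and 7.72 in cKO 1, 2 and 3, in contrast to the rise of Igf1r. It fell by 0.61 (SE 0.15, adjusted p = 0.039), but did not pass when control 1, 2 or 3 was left out (adjusted p = 0.093, 0.12 and 0.14) or cKO 2 or 3 (0.081 and 0.12), nor with median centring, the mean of probe sets or every probe set tested (0.060, 0.064 and 0.097). Igfals, for the acid-labile subunit that forms the serum complex with IGFBP3, fell by 0.54 (SE 0.12, adjusted p = 0.028), not called without control 2 or 3 or cKO 2 or 3 (adjusted p = 0.12, 0.10, 0.053 and 0.095) or with median centring (0.064). Igfbp1, the liver's fasting-induced binding protein gene, differed by -0.34 (SE 0.18, adjusted p = 0.27). The CCN genes, whose matrix proteins share the N-terminal IGFBP domain, split: Ccn1, Ccn2 and Ccn3 rose, while Ccn4, Ccn5 and Ccn6 were not called. Ccn2 rose by 1.9 (SE 0.41, adjusted p = 0.022) and Ccn1 by 1.69 (SE 0.40, adjusted p = 0.032). Both had their lowest cKO value on cKO 1, 9.06 for Ccn2 and 8.51 for Ccn1, against highest controls of 8.29 and 8.23. Ccn2 was not called without control 1, 2 or 3 or cKO 2 or 3 (adjusted p = 0.054 to 0.084), nor Ccn1 without control 2 or 3 or cKO 2 or 3 (adjusted p = 0.075 to 0.12). Ccn3 had all controls and also cKO 1 (6.16) at background, and read 6.88 and 7.02 on cKO 2 and 3 (adjusted p = 0.0052). No fold is given for it. Of the 14 genes of this list, 3 rose and 2 fell (median -0.15).

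Among 5 genes that regulate IGF mRNAs, 1 rose and 0 fell (median -0.10). Igf2bp1, for a fetal RNA-binding protein that binds Igf2 mRNA, rose by 0.52 (SE 0.12, adjusted p = 0.032), a call that depended on control 1, 2 and 3 and on cKO 1 and 2 (adjusted p = 0.062, 0.14, 0.11, 0.070 and 0.059 with each removed) and was absent with the mean of its probe sets (0.38, adjusted p = 0.18). Igf2bp3, of the same family, read 9.48, 9.36 and 9.58 in the controls and 9.16, 8.95 and 9.01 in cKO 1, 2 and 3. Its difference of -0.43 (SE 0.12, adjusted p = 0.052) was opposite in sign to that of Igf2bp1 and was not called, though it was with array weights and with both filters on dim genes (adjusted p = 0.016 to 0.028). Lin28b was at background on all arrays.

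Imprinted growth genes other than Igf2 and Igf2r were mixed, 5 of 15 higher and 1 lower (median 0.53). Cdkn1c, a growth-restraining cell cycle inhibitor gene near Igf2, read 11.99, 11.90 and 12.07 in the controls and 10.98, 11.24 and 10.85 in cKO 1, 2 and 3. It fell by 0.96 (SE 0.14, adjusted p = 0.0046). Dlk1, a paternally expressed gene for a transmembrane relative of the Notch ligands, rose by 1.20 (SE 0.19, adjusted p = 0.0073). Peg3 and Sgce, both paternally expressed like Igf2, rose by 0.82 and 0.60 (adjusted p = 0.010 and 0.0087). Their calls were lost without control 2 (0.76 and 0.59, adjusted p = 0.056 and 0.057). The other genes that rose, Zim1 and Ndn, were named after their values were seen. Zim1 had all controls at background (at least 1.53-fold higher, adjusted p = 0.028) and Ndn rose by 0.71 (SE 0.19), and each lost its call without any 1 control or without cKO 2 or 3 (adjusted p = 0.067 to 0.11 and 0.058 to 0.13). Mest, another paternally expressed gene also named after its values were seen, differed by 0.06 (adjusted p = 0.85). Dlk1, Peg3 and Sgce moved in the direction opposite to Igf2, and 9 of the 15 genes were not called. On the same arrays the fibroblast and smooth muscle markers differed by 0.69 and 0.87 at the median. The part of those shifts in the values of the imprinted genes was not tested.

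Of 13 genes that FOXO factors raise when insulin or IGF signalling is low, 3 fell and 0 rose (median -0.28). Pck1, an enzyme gene of glucose synthesis, read 8.53, 9.80 and 10.93 in the controls and 6.45, 6.20 and 6.21 in cKO 1, 2 and 3, and fell by 3.47 (SE 0.52, adjusted p = 0.0060). G6pc, for the last enzyme of that pathway, was at background in all cKO arrays (at least 3.40-fold lower, adjusted p = 0.024). The call of G6pc was lost without control 2 or 3 or any 1 cKO array (adjusted p = 0.055 to 0.090). The third was Insr. Liver makes both enzymes, and the mean of the liver marker list was lower on the cKO arrays (7.06 to 7.62 against 7.90 to 8.75). Of this list, Alb and Ahsg were at background on all 6 arrays. The 3 markers that fell (Afp, Fgb and Fga) were not called without control 2 or cKO 3. Among the controls the liver mean was highest on control 1 (8.75) and lowest on control 3 (7.90), and Pck1 was lowest on control 1 and highest on control 3. With 3 controls, nothing is read from these orders. Of 11 epithelial markers, Hnf4a, Cdx1 and Cdx2 fell (differences -0.88, -0.60 and -0.79), while Krt8, Krt18 and Krt20 rose. Hnf4a and Cdx1 were not called without cKO 3. The parts of liver RNA and of changes in the epithelium in the values of Pck1 and G6pc were not tested. Other targets on the FOXO list were not called, among them Sesn1 (-0.33, adjusted p = 0.071) and Irs2.

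Besides Igf2r, genes of mannose 6-phosphate sorting held 1 that fell of 7 (0 rose, median -0.29). Gga2, an adaptor that packs mannose 6-phosphate receptors into vesicles at the Golgi, read 9.98, 9.85 and 9.83 in the controls and 8.43, 8.35 and 8.32 in cKO 1, 2 and 3. It fell by 1.52 (SE 0.11, adjusted p = 0.00061), the groups did not overlap, and it was called with any 1 array left out. Gnptab, for the enzyme that builds the tag, differed by -0.32 (SE 0.12, adjusted p = 0.12), Nagpa by -0.29 (adjusted p = 0.14) and Gnptg by -0.36 (adjusted p = 0.16).

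**Figure D5:**
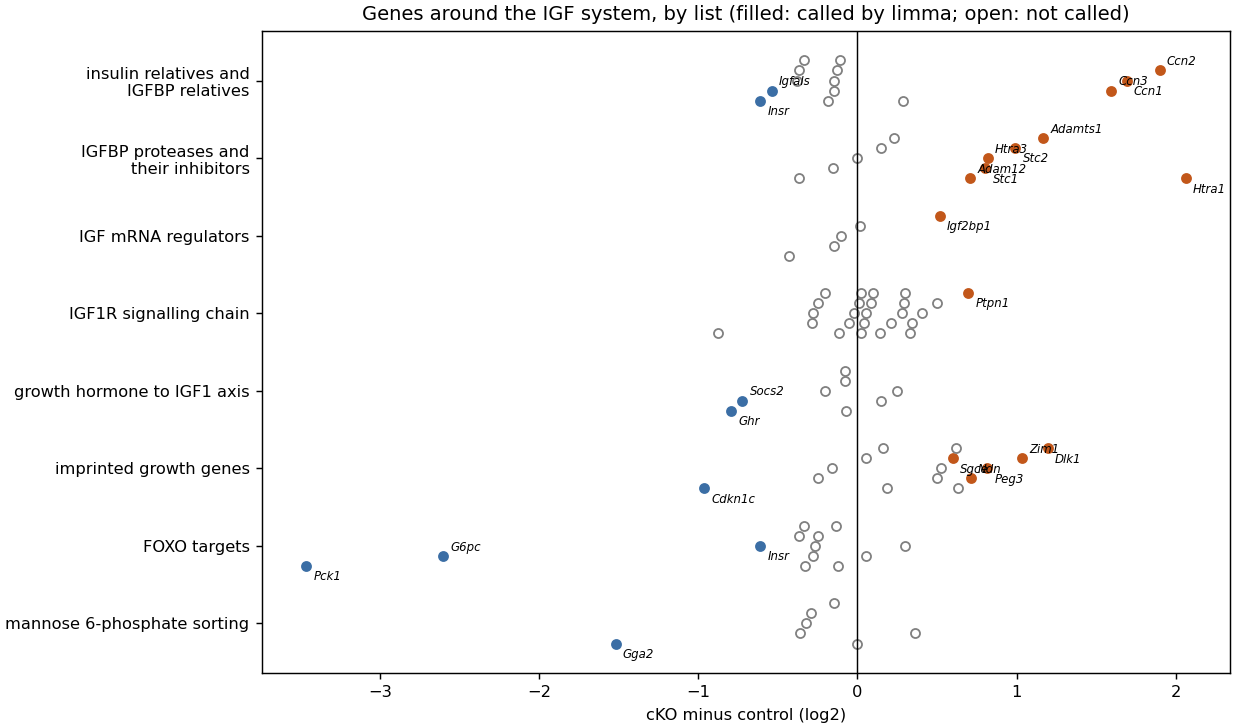
Difference of cKO minus control (log2) for each measured gene of the 8 lists around the IGF system, 1 point per gene, filled where limma called it and open where not, with small vertical offsets for legibility. Of the 11 genes of IGFBP proteases and their inhibitors, 8 have a difference above 0, with Htra1 at 2.06. Ghr, Socs2, Insr and Gga2 lie to the left.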

How the data were processed

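RNA of whole small intestine from 3 control and 3 cKO samples was hybridised to Affymetrix Mouse Gene 1.0 arrays and analysed with dChip, per the series design text. The deposited table holds 1 value with 2 decimals for each of 35512 probe sets and array. The values, 0 to 14.07, were taken to be the authors' log2 expression values. No label names a scale, and no source used here gives dChip's version, background correction, normalization or model. Probe sets with 1 symbol in the platform annotation (21789) were renamed through the gene identifier where GRCm38.p6 RefSeq held it (21698). The brightest probe set per gene was kept, leaving 19938 genes, and no filter on dim genes was applied.

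Values were tested as deposited with limma 3.58.1 in R 4.3.3 (lmFit and eBayes, all 6 arrays, two-sided, no covariate), with Benjamini-Hochberg adjustment over all genes. Alternatives were quantile normalization, median centring, cyclic loess, array weights, a replicate block, filters on the dimmest 25% and 50% of genes, the mean of probe sets, every probe set, and leaving out each array. The members and the 17 gene lists were chosen with earlier results of these data known. Named genes are the 10 members, Cdh1, the 4 genes with the smallest p of each list, Igfbp1, Igfals, Insr, Irs1, Irs2, Pappa, Igf2bp1, Igf2bp3, Ghr and Socs2 and the 2 genes most like each member; Ccn4 to Ccn6, Stc2, Adam12, Zim1, Ndn, Meg3, Mest, the markers and the neighbouring genes were named after their values were seen. H19, Igf2bp2, Ins1, Hmga1, Rps6kb1, Gnas, Kcnq1ot1 and M6pr were not analysed here. Promoter windows came from RefSeq and were searched on both strands over 250 bases before the start.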

Additional observations from a re-analysis of the deposited data

How the results depend on the processing

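The differences of the 10 IGF genes kept their sign in all 150 values, 1 per gene under each of 15 other settings. Many of these values could not change sign. The replicate block, both filters on dim genes, the mean of probe sets and every probe set return the same difference for each member. In the 9 genes whose groups do not overlap, leaving out 1 array cannot reverse the sign. In 128 of the 150 values the call was as reported, in 14 it was lost and in 8 gained. With each array left out in turn, 4 to 7 members were called higher and 1 to 2 lower, among 1226 to 2713 genes called, and the difference of Cdh1 ran from -1.30 to -0.64. The genes of the 8 surrounding lists called higher numbered 7 to 16, and those called lower 5 to 8. Array weights raised the genes called from 2825 to 5834, with 8 members higher and 2 lower, and Cdh1 was called (-0.89). Cdh1 was also called without the dimmest 50% of genes (-0.95). Testing every probe set lowered the count to 1870, as more features were tested, with 5 members higher, 1 lower and 5 surrounding genes lower. Igf2r, Igfbp5, Insr, Igfals, Ccn1, Ccn2, Igf2bp1, G6pc, Zim1, Ndn and Mrpl23 were not called then. Of the genes called, 48.1% were higher as deposited, 56.4% after quantile normalization and 57.7% after centring on the median. The replicate block left 2212 genes called and changed the call of none of the 10 IGF genes; Insr, Igfals, Igf2bp1, Ndn and Mrpl23 lost theirs and Tsc1 and Meg3 gained one. Same-numbered arrays correlated at -0.08, 0.131 and 0.137 in their deviations from the group means, so the numbers are not taken to pair samples. The number of arrays limits the precision.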

Other observations

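Of the 18 measured genes next to the IGF genes in RefSeq order that are not themselves among the 10, 1 rose and 1 fell by limma over all genes. The share called among all genes was 14.2%. Synm, beside Igf1r, encodes an intermediate filament protein of muscle and rose by 1.39 (SE 0.17, adjusted p = 0.0030). Mrpl23, a mitochondrial ribosomal protein gene beside Igf2, fell by 0.50 (SE 0.12, adjusted p = 0.037), a call lost without control 1 or 2 or cKO 1 or 3 (adjusted p = 0.081 to 0.15). Igfbp2 and Igfbp5 are neighbours and both rose, while Igfbp1, beside Igfbp3, was not called. The antisense gene Igf1os lay at background on all 6 arrays. Mir483, a microRNA gene inside Igf2, differed by -0.24 (SE 0.18, adjusted p = 0.42), and Airn, the antisense RNA gene that silences the paternal Igf2r copy, by 0.10 (SE 0.10, adjusted p = 0.57).

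For each of the 10 the 2 genes with the highest Pearson r over the 6 arrays were sought, as a description in which the split between the groups sets most of the likeness. They were Col8a1 and Wwtr1 for Igf1 (both 0.996), Snx17 and Necap1 for Igf2 (0.998 and 0.997), Flna and Aldoa for Igf1r (0.998 and 0.997) and Pikfyve and Atp6v1a for Igf2r (0.999 and 0.998). For the binding proteins they were Gypc and Rnf26 for Igfbp2, Prss35 and Armc1 for Igfbp3, Dlk1 and Septin6 for Igfbp4, Prep and Nckap1l for Igfbp5, Kcne3 and Mrpl37 for Igfbp6 and Frmd4a and Lrrc8c for Igfbp7, with r of 0.993 to 0.999.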
